A study of Mus musculus with 16 samples.

Results

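The mitochondrial tRNAs for phenylalanine (anticodon GAA), valine (TAC) and leucine (TAA) are the tRNAs whose genes stand next to the 2 mitochondrial ribosomal RNA genes. The rule that picked them names gene position and uses no measured value, although earlier results of these data were known, and their rows in the files are mito_tRNA-Phe-GAA-1, mito_tRNA-Val-TAC-1 and mito_tRNA-Leu-TAA-1 (here mt-tRNA-Phe, mt-tRNA-Val, mt-tRNA-Leu-TAA). They make up 3 of the 826 tRNA transcripts counted in the series and 3 of its 22 mitochondrial tRNAs. A RefSeq gene table of the mouse assembly GRCm38.p6 served for gene names and neighbours and gives the order TrnF (tRNA-Phe), mt-Rnr1 (small-subunit rRNA), TrnV (tRNA-Val), mt-Rnr2 (large-subunit rRNA), TrnL1 (tRNA-Leu-TAA) and ND1. All 3 are heavy-strand tRNAs, cut from the transcript that also carries both rRNAs and most mitochondrial mRNAs, and 11 other tRNAs come from the same transcript. The remaining 8, mt-tRNA-Ala among them, come from the opposite, light-strand transcript.

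Mitochondrial DNA is copied into long RNAs in which tRNAs separate the rRNAs and mRNAs, and cutting out each tRNA also frees its neighbours. The gene for mt-tRNA-Phe lies nearest the heavy-strand promoter, and that for mt-tRNA-Leu-TAA holds a binding site of the transcription termination factor MTERF1. Besides decoding codons, a mitochondrial tRNA, valine or phenylalanine depending on the species, is built into the large subunit of the mammalian mitochondrial ribosome.

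The study sequenced tRNA in 16 mouse libraries and concerned the correction of a disease mutation in the mitochondrial tRNA-Ala gene with a base editor. Of the 8 libraries of mouse embryonic fibroblasts (MEFs), 2 came from a line named Ctrl_1 and 2 each from lines named Cl_1, Cl_2 and Cl_3. The labels give neither the lines' genotypes nor the meaning of Ctrl and Cl. The 2 libraries of a line are cell passages, so edgeR p-values in the MEFs measure the spread between passages, and 1 control line stands for its group. The permutation tests over MEF libraries take passages as units and mix the spread between lines with that between passages. The other 8 libraries were hearts of separate mice from the m.5024T mouse model, all in either of 2 arms: 4 mice given AAV9-GFP and 4 given AAV9-DdCBE. The vector AAV9 is a virus that reaches the heart well, GFP served as a fluorescent control cargo, and DdCBE names a class of protein editors that convert cytosine in mitochondrial DNA. Titles also mark the hearts with unexplained labels, 5X (mice 5 and 6) or 3X (mice 14 and 19) in the AAV9-GFP arm and 10X (mice 17 and 18), 5X (mouse 25) or 2X (mouse 26) in the AAV9-DdCBE arm. Only 5X occurs in both arms. A comparison of the 10X hearts with AAV9-GFP therefore cannot tell arm from label. Age and sex are not in the labels used here. The tables hold tRNAs only, so the labelled tissue and cell type could not be checked against marker genes.

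Total counts ran from 1473330 to 4375975 per MEF library and from 1540287 to 3037178 per heart. Mitochondrial tRNAs took 2.14% to 3.74% of the counts in the MEFs, where both Ctrl_1 libraries were the highest, and 37.4% to 59.9% in the hearts, where mouse 17 was the highest and the next mouse reached 44.5%. Of the mitochondrial tRNA counts the 3 tRNAs together made up 22.7% to 32.8% per MEF library and 20.9% to 26.4% per heart. Each was deeply counted: the lowest count was 2127, of mt-tRNA-Leu-TAA in Cl_2 replicate 2. Levels are counts per 1000000 after edgeR's TMM scaling (CPM), which sets libraries on a common scale through the bulk of the transcripts. In these bulk samples fewer cells of a type and less tRNA per cell cannot be told apart.

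In the MEFs all 3 tRNAs were lower in the Cl lines than in Ctrl_1, with the largest difference in mt-tRNA-Phe. The mean of the Cl lines was 2.38-fold lower for mt-tRNA-Phe, 1.59-fold lower for mt-tRNA-Val and 1.55-fold lower for mt-tRNA-Leu-TAA. For each of them the 6 Cl libraries all lay below both Ctrl_1 libraries, as did those of 22.9% of all 201 transcripts tested (46 of 201). In the same test, edgeR's quasi-likelihood test with Benjamini-Hochberg adjustment and a threshold of 0.05, 48.3% of all 201 transcripts tested passed, 22.9% higher and 25.4% lower, so passing by itself was common. That split, 46 higher and 51 lower, was 61 and 35 with library totals only, 60 and 35 with scaling on nuclear tRNA counts, and 103 and 8 with scaling on the 19 other mitochondrial tRNAs. Without Ctrl_1 replicate 1, 59 transcripts passed in place of 97. Leaving out either Ctrl_1 library leaves a control of 1 library, and leaving out a Cl library leaves its line with 1; the lone library is then assumed to vary like the other lines.

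The level of mt-tRNA-Phe, which decodes phenylalanine codons, was 6107 and 5391 CPM in the Ctrl_1 passages, 2385 and 2964 CPM in Cl_1, 2477 and 2532 CPM in Cl_2, and 1975 and 2227 CPM in Cl_3. The lowest Ctrl_1 library was thus well above the highest Cl library, and Cl_3 held both of the lowest values. The mean of the Cl lines differed from Ctrl_1 by -1.25 ± 0.09 (log2, SE; edgeR adjusted p = 8.22e-05). Only mt-tRNA-Ala, the tRNA of the mutated gene, had a larger drop among the mitochondrial tRNAs (-1.68 ± 0.16, edgeR adjusted p = 1.95e-04).

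The level of mt-tRNA-Val was 4663 and 3767 CPM in Ctrl_1, 2193 and 3430 CPM in Cl_1, 2575 and 2881 CPM in Cl_2, and 1965 and 2859 CPM in Cl_3. The groups did not overlap, but the passages of Cl_1 and of Cl_3 were far apart, and the upper Cl_1 passage came close to the lower Ctrl_1 passage. The mean of the Cl lines differed from Ctrl_1 by -0.67 ± 0.19 (log2, SE; edgeR adjusted p = 0.0225). With Ctrl_1 replicate 2 as the lone control library the difference was -0.52 and did not pass (edgeR adjusted p = 0.153, the spread coming from the Cl lines).

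The level of mt-tRNA-Leu-TAA, which reads leucine codons of the UUR type, was 2371 and 2069 CPM in Ctrl_1, 1349 and 1622 CPM in Cl_1, 1498 and 1399 CPM in Cl_2, and 1314 and 1442 CPM in Cl_3. Its Cl libraries formed a narrow band below both Ctrl_1 libraries. The mean of the Cl lines differed by -0.63 ± 0.10 (log2, SE; edgeR adjusted p = 0.00212).

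**Figure D1:**
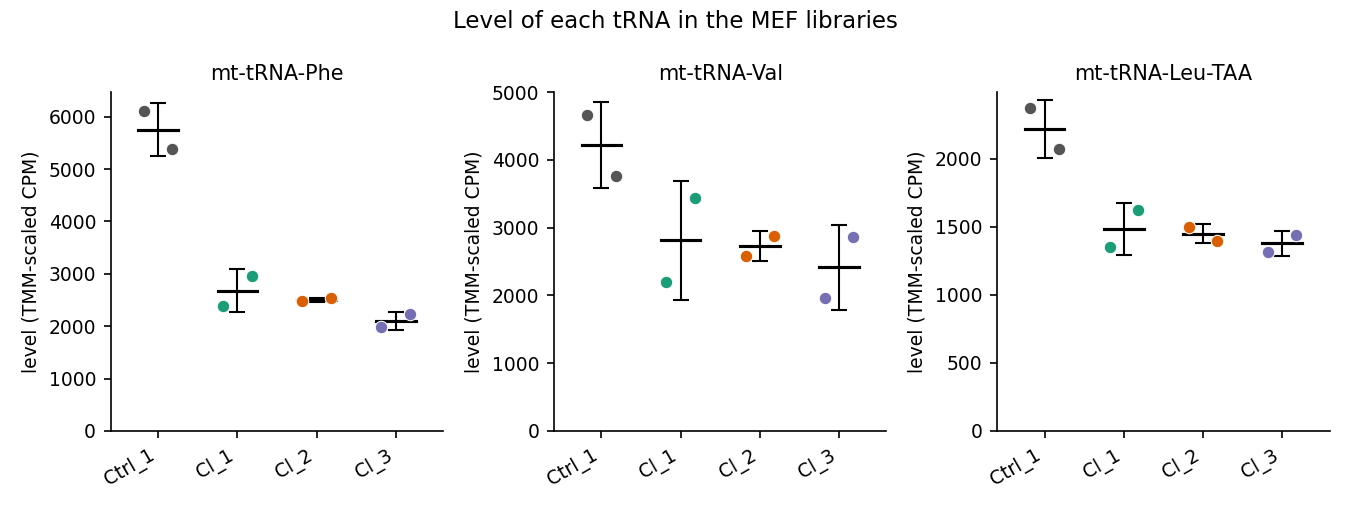
Level of each tRNA in the 8 MEF libraries (TMM-scaled CPM, linear axis from 0). Points are libraries, 2 passages a line, with the line's mean (bar) and SD (error bar); in each panel the 6 Cl points lie below both Ctrl_1 points, and the gap is widest for mt-tRNA-Phe.

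Taken line by line, mt-tRNA-Phe and mt-tRNA-Leu-TAA fell in each Cl line. mt-tRNA-Val passed in Cl_3 and missed the threshold in Cl_1 and Cl_2, with differences of like size that were not shown to differ between the lines. These 3 comparisons share the same 2 Ctrl_1 libraries. The group means of mt-tRNA-Phe were 5749 ± 506 CPM in Ctrl_1, 2675 ± 409 (Cl_1), 2504 ± 39.0 (Cl_2) and 2101 ± 178 (Cl_3), as mean ± SD of 2 passages. Its differences from Ctrl_1 were -1.10 ± 0.12 for Cl_1, -1.20 ± 0.12 for Cl_2 and -1.45 ± 0.12 for Cl_3 (log2, SE; edgeR adjusted p = 0.00105, 4.72e-04 and 1.33e-04). Of all transcripts 33.8% passed for Cl_1, 46.3% for Cl_2 and 50.7% for Cl_3, and 18.9%, 20.4% and 24.4% passed in the lower direction.

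For mt-tRNA-Leu-TAA the means were 2220 ± 213 CPM in Ctrl_1, 1485 ± 193 (Cl_1), 1448 ± 70.4 (Cl_2) and 1378 ± 90.4 (Cl_3), again of 2 passages. The differences from Ctrl_1 were -0.58 ± 0.13, -0.62 ± 0.13 and -0.69 ± 0.13 (log2, SE; edgeR adjusted p = 0.0100, 0.00753 and 0.00388). In Cl_1 the call rested on single libraries: the difference was -0.49 without Ctrl_1 replicate 1 (edgeR adjusted p = 0.0622) and -0.44 without Cl_1 replicate 1 (edgeR adjusted p = 0.0616).

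For mt-tRNA-Val the means were 4215 ± 633 CPM in Ctrl_1, 2811 ± 875 (Cl_1), 2728 ± 216 (Cl_2) and 2412 ± 632 (Cl_3). The differences were -0.58 ± 0.25 for Cl_1, -0.63 ± 0.25 for Cl_2 and -0.81 ± 0.25 for Cl_3 (log2, SE; edgeR adjusted p = 0.111, 0.0761 and 0.0287). With the replicate block, which pairs passages of the same number, the Cl_2 difference was -0.65 and passed (edgeR adjusted p = 0.0461). The Cl_3 call was lost without Ctrl_1 replicate 1 (-0.66, edgeR adjusted p = 0.116) and without Cl_3 replicate 1 (-0.57, edgeR adjusted p = 0.130). The Cl_1 difference was -0.90 without Cl_1 replicate 2 (edgeR adjusted p = 0.0362) and -0.28 without Cl_1 replicate 1 (edgeR adjusted p = 0.415), each time with 1 Cl_1 library left.

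No difference of the 3 tRNAs between the Cl lines passed, where 16.9% of all transcripts passed between Cl_2 and Cl_1, 25.9% between Cl_3 and Cl_1, and 0.995% between Cl_3 and Cl_2. The order of the line means was Ctrl_1, Cl_1, Cl_2, Cl_3 for each of the 3 tRNAs, and neighbouring Cl lines in that order did not differ past the threshold. For mt-tRNA-Phe, Cl_3 differed from Cl_1 by -0.35 ± 0.12, from Cl_2 by -0.25 ± 0.12, and Cl_2 from Cl_1 by -0.09 ± 0.12 (log2, SE; edgeR adjusted p = 0.0747, 0.347 and 0.632). The difference of Cl_3 from Cl_1 passed in DESeq2 (-0.34, DESeq2 adjusted p = 0.0433), with no filter on low counts (-0.34) and without Cl_1 replicate 1 (-0.52, edgeR adjusted p = 0.0359). In an edgeR F test over the 3 Cl lines, which 24.4% of all transcripts passed, the adjusted p was 0.142 for mt-tRNA-Phe, 0.754 for mt-tRNA-Val and 0.778 for mt-tRNA-Leu-TAA.

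The other tRNAs of the strand gave the background for these values. For the mean of the 3 Cl lines, 8 of the 11 other heavy-strand tRNAs fell and 0 rose; their median difference was -0.76 (log2), beside -0.67 for the median of the 3. The median over all 201 transcripts was -0.00080. The lowest of the 11 were mt-tRNA-Ser-GCT (-1.17, edgeR adjusted p = 0.128) and mt-tRNA-Leu-TAG (-0.97, edgeR adjusted p = 0.00406), and the highest were mt-tRNA-Arg (-0.68, edgeR adjusted p = 0.00460) and mt-tRNA-Lys (-0.22, edgeR adjusted p = 0.437). The differences of mt-tRNA-Leu-TAA and mt-tRNA-Val thus lay near the upper end of the strand's values, and that of mt-tRNA-Phe below all 11. Line by line this held in Cl_3 (-1.45 beside -1.19 for mt-tRNA-Ser-GCT), whereas mt-tRNA-Phe was level with mt-tRNA-Asp in Cl_1 (both -1.10) and above mt-tRNA-Ser-GCT in Cl_2 (-1.20 beside -1.49). mt-tRNA-Ser-GCT was sparsely counted. Its mean share of mitochondrial tRNA counts was 0.0948% in Ctrl_1 and 0.0683% in the Cl libraries. Of the 8 light-strand tRNAs 2 fell, mt-tRNA-Ala and mt-tRNA-Tyr (-0.39, edgeR adjusted p = 0.00453), 0 rose, and the highest values were those of mt-tRNA-Asn (0.40, edgeR adjusted p = 0.242) and mt-tRNA-Glu (0.60, edgeR adjusted p = 0.105).

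**Figure D2:**
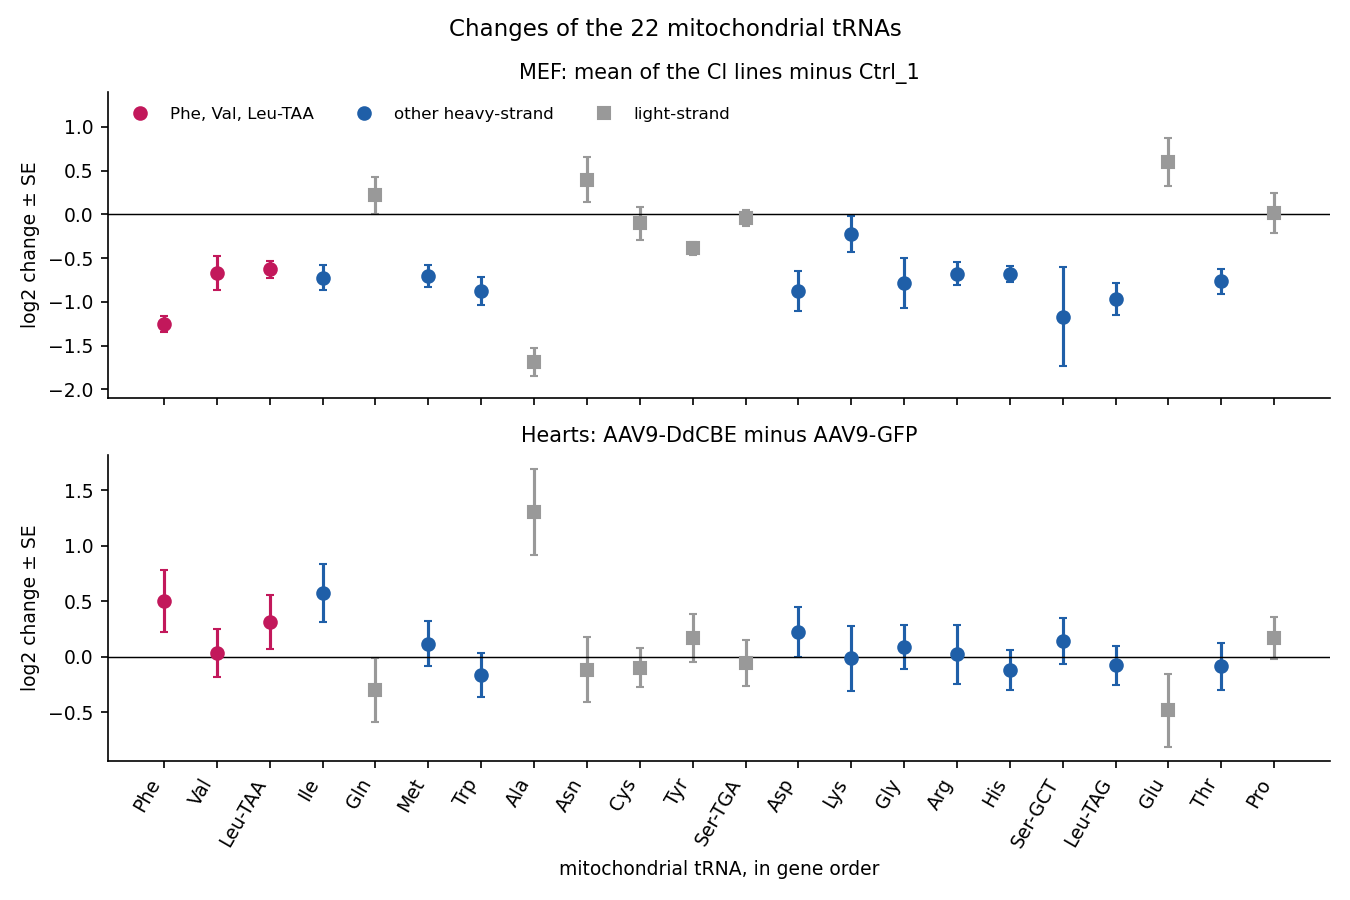
Log2 differences (edgeR, ± SE) of the 22 mitochondrial tRNAs in gene order, for the mean of the Cl lines minus Ctrl_1 in the MEFs (top) and AAV9-DdCBE minus AAV9-GFP in the hearts (bottom). In the MEFs mt-tRNA-Phe (-1.25) stands below mt-tRNA-Leu-TAA (-0.63) and mt-tRNA-Val (-0.67), which lie near the upper end of the heavy-strand tRNAs; in the hearts the values are 0.51 (mt-tRNA-Phe), 0.32 (mt-tRNA-Leu-TAA) and 0.03 (mt-tRNA-Val).

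When the MEF libraries were scaled on the 19 other mitochondrial tRNAs in place of all transcripts, which moved the median of all transcripts to 0.47, the difference of mt-tRNA-Phe was -0.78 and still passed (edgeR adjusted p = 8.40e-05). Those of mt-tRNA-Leu-TAA (-0.15) and mt-tRNA-Val (-0.21) did not pass (edgeR adjusted p = 0.367 and 0.260). On this scale mt-tRNA-Phe stayed past the threshold in Cl_1 (-0.66), Cl_2 (-0.72) and Cl_3 (-0.95), with edgeR adjusted p of 0.00739, 0.00294 and 1.45e-04.

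Shares of the mitochondrial tRNA counts, which need no scaling to nuclear tRNAs, also placed mt-tRNA-Phe lower in the Cl lines. Its share was 15.3% and 15.2% in Ctrl_1 and 8.52% to 10.8% in the 6 Cl libraries, so that the groups lay far apart beside the spread within each. Counting error was small beside this gap, with 95% Wilson intervals 0.365 to 0.582 points wide. The means were 15.2% ± 0.0230 (SD, n = 2) and 9.72% ± 0.849 (SD, n = 6), a difference of -5.52 percentage points. The exact two-sided permutation test over libraries gave p = 0.0714, the smallest p that 6 against 2 libraries allow. Among the 22 mitochondrial tRNAs, 18.2% had a share that was lower in every Cl library than in either Ctrl_1 library, and 27.3% had one that was higher in every Cl library.

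The shares of the other 2 among all mitochondrial tRNA counts overlapped between Ctrl_1 and the Cl lines. That of mt-tRNA-Val was 11.6% and 10.6% in Ctrl_1 and 8.47% to 11.6% in the Cl libraries (11.1% ± 0.714, n = 2, and 10.5% ± 1.17, n = 6, SD; exact permutation p = 0.643). That of mt-tRNA-Leu-TAA was 5.92% and 5.84% in Ctrl_1 and 5.36% to 6.23% in the Cl libraries (5.88% ± 0.0560, n = 2, and 5.78% ± 0.358, n = 6, SD; exact permutation p = 0.714). The Cl range held both Ctrl_1 values of mt-tRNA-Leu-TAA and the lower one of mt-tRNA-Val. The Wilson intervals were 0.313 to 0.616 points wide for mt-tRNA-Val and 0.238 to 0.443 for mt-tRNA-Leu-TAA. These widths were not small beside the differences in group means (-0.596 and -0.104 points). With the heavy-strand tRNAs alone as denominator both differences were positive, and the mt-tRNA-Leu-TAA shares no longer overlapped.

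Ratios of counts within a library compared the 3 tRNAs with each other. The log2 ratio of mt-tRNA-Phe to mt-tRNA-Val was 0.39 and 0.52 in Ctrl_1, 0.12 and -0.21 in Cl_1, -0.06 and -0.19 in Cl_2, and 0.01 and -0.36 in Cl_3. All Cl values lay below both Ctrl_1 values, with a difference of group means of -0.57 (exact permutation p = 0.0714, n = 6 and 2). The log2 ratio of mt-tRNA-Phe to mt-tRNA-Leu-TAA was 1.37 and 1.38 in Ctrl_1, 0.82 and 0.87 in Cl_1, 0.73 and 0.86 in Cl_2, and 0.59 and 0.63 in Cl_3, again without overlap (-0.63, exact permutation p = 0.0714, n = 6 and 2).

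The ratio of mt-tRNA-Leu-TAA to mt-tRNA-Val did not separate the lines: its log2 value was -0.98 and -0.86 in Ctrl_1 and ran from -1.08 to -0.58 in the Cl libraries (difference 0.06, exact permutation p = 0.786, n = 6 and 2). Against the mean log2 count of the 11 other heavy-strand tRNAs, mt-tRNA-Phe differed by -0.47 with no overlap (exact permutation p = 0.0714), mt-tRNA-Val by 0.10 (exact permutation p = 0.643) and mt-tRNA-Leu-TAA by 0.15 (exact permutation p = 0.357). With 6 against 2 libraries none of these tests can go below 0.0714, and none passed. The groups did not overlap in the 3 ratios with mt-tRNA-Phe on top, and overlapped in the other 3. Such separation was common: it held for 46.3% of the 231 ratios between any 2 mitochondrial tRNAs. Lower values over the other heavy-strand tRNAs in every Cl library held for 9.09% of the 22, mt-tRNA-Phe and mt-tRNA-Ala.

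In the hearts none of the 3 tRNAs passed the test between AAV9-DdCBE and AAV9-GFP, and neither did any other transcript. With edgeR 0 of 180 transcripts (0%) passed, 35 had an unadjusted p under 0.05, and DESeq2 called 27. Without mouse 25 edgeR called 19, and without mouse 26 it called 31. The level of mt-tRNA-Phe was 32727, 26324, 42669 and 44444 CPM in AAV9-GFP mice 5, 6, 14 and 19, and 81349, 44272, 39358 and 42491 CPM in AAV9-DdCBE mice 17, 18, 25 and 26. Mouse 17 was far above every other heart, and the other AAV9-DdCBE hearts lay inside the AAV9-GFP range. The arms had means of 36541 ± 8543 and 51867 ± 19759 CPM (SD over 4 hearts), and edgeR gave 0.51 ± 0.28 on the log2 scale (SE; adjusted p = 0.323). Without mouse 17 the difference was 0.20 (edgeR adjusted p = 0.558), and with scaling on nuclear tRNA counts 0.81 (edgeR adjusted p = 0.264).

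The level of mt-tRNA-Val was 34133, 36660, 29784 and 44254 CPM in mice 5, 6, 14 and 19, and 50138, 30150, 30901 and 37061 CPM in mice 17, 18, 25 and 26. The groups overlapped fully apart from mouse 17, and edgeR gave 0.03 ± 0.21 on the log2 scale (SE; adjusted p = 0.909). Its sign turned without mouse 17 (-0.15, edgeR adjusted p = 0.567) and under the scaling on the 19 other mitochondrial tRNAs (-0.01, edgeR adjusted p = 0.967), so no direction is given for it.

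The level of mt-tRNA-Leu-TAA was 16984, 19338, 15920 and 22082 CPM in mice 5, 6, 14 and 19, and 35953, 20266, 17392 and 18884 CPM in mice 17, 18, 25 and 26. Again mouse 17 stood alone and the other 3 AAV9-DdCBE hearts lay within the AAV9-GFP range (0.32 ± 0.24, log2, SE, n = 4 each; edgeR adjusted p = 0.380). The difference was 0.021 without mouse 17, 0.57 without mouse 25, 0.53 without mouse 26 and 0.63 with scaling on nuclear tRNA counts (edgeR adjusted p = 0.954, 0.198, 0.217 and 0.304). mt-tRNA-Ala had the largest difference of the 22 (1.31 ± 0.39, edgeR adjusted p = 0.0866).

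**Figure D3:**
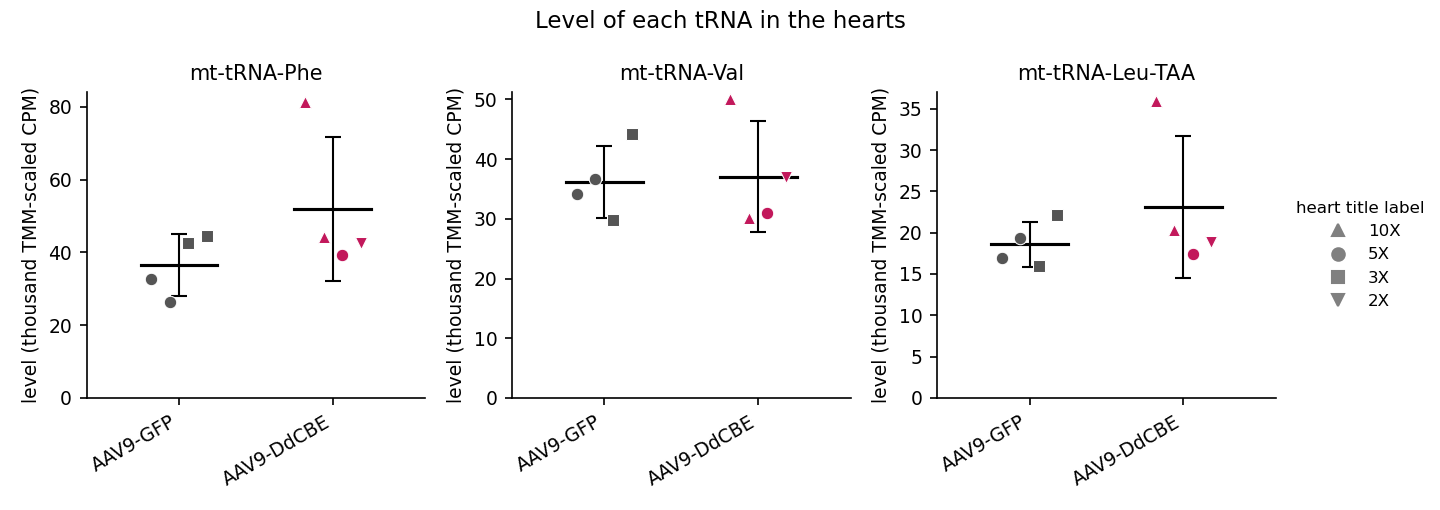
Level of each tRNA in the 8 hearts (axis in units of 1000 TMM-scaled CPM, from 0), with marker shape for the title's X label, the group mean (bar) and SD (error bar, n = 4). Mouse 17, labelled 10X, is the highest point in each panel; the other AAV9-DdCBE hearts lie within the AAV9-GFP range.

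Mitochondrial tRNAs took 59.9% of the counts of mouse 17 and 37.4% to 44.5% of those of the other hearts, so values per library total and shares within the mitochondrial tRNAs were compared side by side. The part of this share in the CPM of the 3 tRNAs was not tested. Within the mitochondrial tRNAs, the share of mt-tRNA-Phe was 8.58%, 6.81%, 10.1% and 9.39% in AAV9-GFP mice 5, 6, 14 and 19, and 12.8%, 11.3%, 10.7% and 10.8% in AAV9-DdCBE mice 17, 18, 25 and 26. Every AAV9-DdCBE heart was above every AAV9-GFP heart, although the margin between mouse 25 and mouse 14 was small beside the spread of the AAV9-GFP hearts. The means were 8.72% ± 1.42 and 11.4% ± 0.996 (SD, n = 4 each), a difference of 2.68 percentage points (exact two-sided permutation p = 0.0286, the smallest that 4 against 4 allow; Benjamini-Hochberg 0.171 over 18 tests). mt-tRNA-Phe was the only 1 of the 22 mitochondrial tRNAs (4.55%) whose share was higher in every AAV9-DdCBE heart, and 0 (0%) were lower in every one. By the ratio of mean shares, mt-tRNA-Ile (log2 0.44) and mt-tRNA-Ala (log2 1.16) rose more than mt-tRNA-Phe (log2 0.39). The groups of mt-tRNA-Ile and of mt-tRNA-Ala overlapped.

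The share of mt-tRNA-Val was 8.95%, 9.48%, 7.05% and 9.35% in the AAV9-GFP hearts and 7.92%, 7.68%, 8.40% and 9.41% in the AAV9-DdCBE hearts, in the same order of mice, and overlapped (difference -0.36 points, exact permutation p = 0.629, n = 4 each). That of mt-tRNA-Leu-TAA was 4.45%, 5.00%, 3.77% and 4.67%, and 5.68%, 5.16%, 4.73% and 4.79% (difference 0.62 points, exact permutation p = 0.114, n = 4 each). Both 10X hearts exceeded every AAV9-GFP heart in the mt-tRNA-Leu-TAA share, and the 5X and 2X hearts lay below AAV9-GFP mouse 6.

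**Figure D4:**
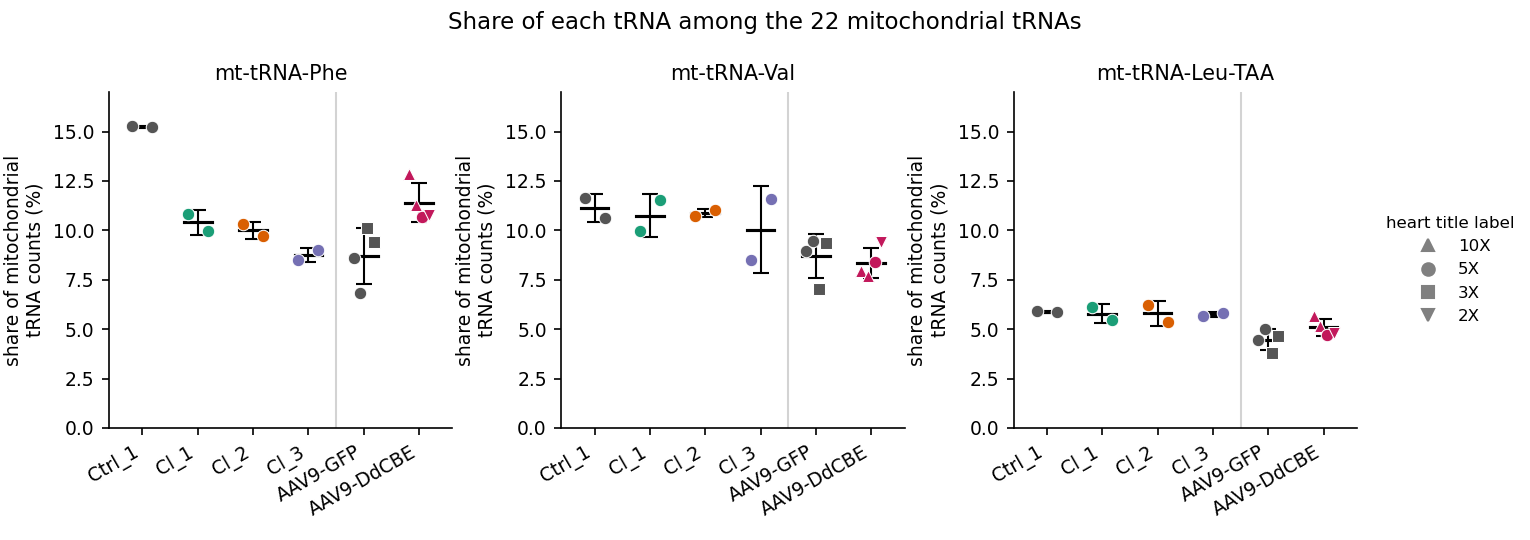
Share of each tRNA among the 22 mitochondrial tRNAs (percent of counts, axis from 0), by MEF line (2 passages each) and heart arm (4 mice each), with means (bars) and SD (error bars). For mt-tRNA-Phe the Ctrl_1 points (15.3% and 15.2%) lie above all Cl points and the AAV9-DdCBE points (10.7% to 12.8%) above all AAV9-GFP points; the other panels overlap between groups.

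Relative to the 11 other heavy-strand tRNAs, mt-tRNA-Phe was higher in all 4 AAV9-DdCBE hearts than in any AAV9-GFP heart (log2 difference 0.43, exact permutation p = 0.0286, Benjamini-Hochberg 0.171). Its log2 value over the strand was 1.10, 0.71, 1.34 and 1.23 in mice 5, 6, 14 and 19, and 1.71, 1.49, 1.45 and 1.46 in mice 17, 18, 25 and 26. The same held for mt-tRNA-Leu-TAA, with 0.15, 0.26, -0.08 and 0.22 against 0.53, 0.36, 0.27 and 0.29 (difference 0.22, exact permutation p = 0.0286, Benjamini-Hochberg 0.171), but with the summed counts of the 11 as base its groups overlapped (0.23, exact permutation p = 0.0857). These were the 2 of the 22 mitochondrial tRNAs (9.09%) whose value over the other heavy-strand tRNAs was higher in every AAV9-DdCBE heart. The AAV9-GFP and AAV9-DdCBE means lay further apart for mt-tRNA-Ile (0.53 and 1.05) and mt-tRNA-Ala (-3.44 and -2.25) than for mt-tRNA-Phe (1.09 and 1.53). The groups of mt-tRNA-Ile and of mt-tRNA-Ala overlapped. mt-tRNA-Val did not differ beyond the spread (-0.02, exact permutation p = 0.857, n = 4 each). All 18 tests of shares and ratios, over MEFs and hearts, formed 1 family, and after Benjamini-Hochberg adjustment the lowest value was 0.171, so none passed.

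The ratio of mt-tRNA-Phe to mt-tRNA-Val gave log2 values of -0.06, -0.48, 0.52 and 0.01 in AAV9-GFP mice 5, 6, 14 and 19, and 0.70, 0.55, 0.35 and 0.20 in AAV9-DdCBE mice 17, 18, 25 and 26. Mouse 14 alone kept the groups from separating (difference 0.45, exact permutation p = 0.0857, n = 4 each). The linear ratio of mt-tRNA-Leu-TAA to mt-tRNA-Val was tight in the AAV9-GFP hearts, at 0.498, 0.527, 0.535 and 0.499, and was 0.717, 0.672, 0.563 and 0.510 in the AAV9-DdCBE hearts (log2 difference 0.25, exact permutation p = 0.0857, n = 4 each). In both ratios the 2 hearts labelled 10X were the highest of the 8, the 5X heart came below them and the 2X heart was the lowest of its arm, with 1 or 2 hearts per label.

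The ratio of mt-tRNA-Phe to mt-tRNA-Leu-TAA showed a different picture. It was 1.18, 1.13, 1.18 and 1.17 (log2) in the AAV9-DdCBE hearts and spread from 0.44 in mouse 6 to 1.42 in mouse 14 among the AAV9-GFP hearts, with 0.95 in mouse 5 and 1.01 in mouse 19. The group means differed by 0.21 (exact permutation p = 0.486, n = 4 each), which is within that spread.

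**Figure D5:**
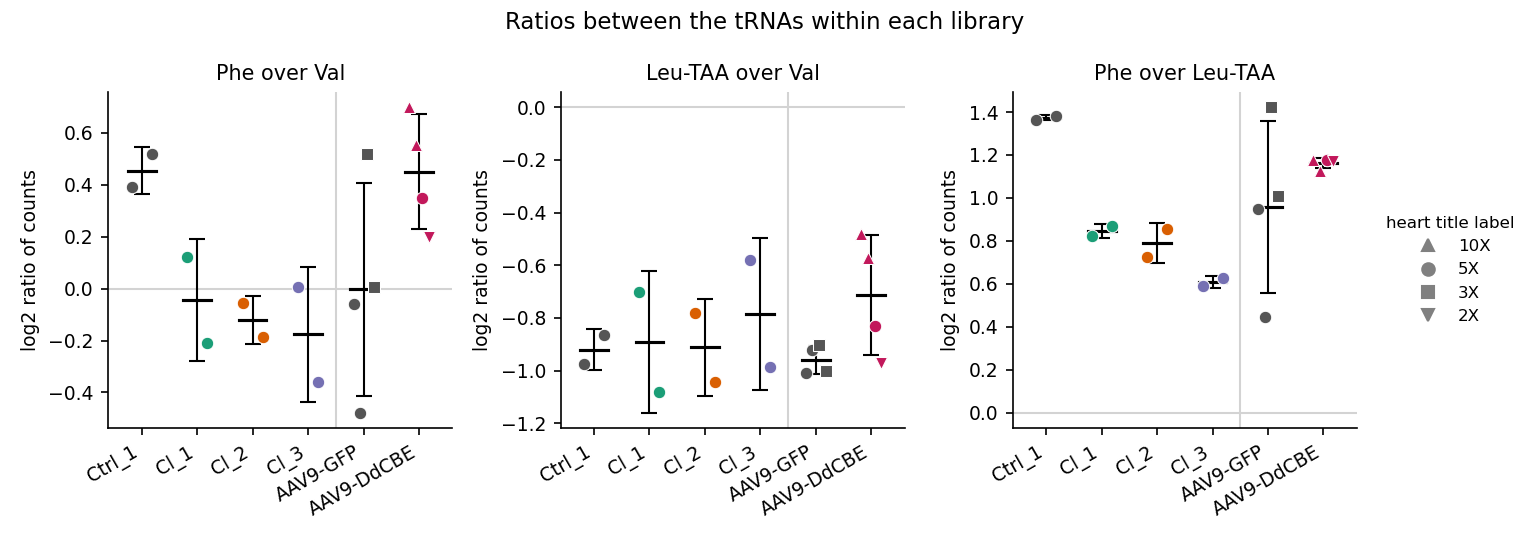
Log2 ratios of counts between the tRNAs within each library, by MEF line and heart arm, with means (bars) and SD (error bars, n = 2 a line and 4 an arm). The Ctrl_1 points lie above the Cl points in both ratios with mt-tRNA-Phe on top, and the 10X hearts are the highest hearts in both ratios over mt-tRNA-Val.

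With the hearts divided by X label in the fit, the 2 hearts labelled 10X were set against the 4 AAV9-GFP hearts. An earlier look at these data had shown that these 2 hearts stand apart, so the calls of this contrast are not an independent test. Of 180 transcripts 51.7% passed, 23.9% higher and 27.8% lower, and the median over all transcripts was -0.23 (log2). The count of 93 was 41 without mouse 17, 45 without mouse 6, 50 without mouse 5 and 62 without mouse 26. The split of 43 higher and 50 lower was 52 and 23 in DESeq2, 48 and 9 with library totals only, 60 and 6 with scaling on nuclear tRNA counts, and 39 and 7 with scaling on the 19 other mitochondrial tRNAs. The log2 differences were 0.78 ± 0.31 for mt-tRNA-Phe, 0.15 ± 0.26 for mt-tRNA-Val and 0.60 ± 0.25 for mt-tRNA-Leu-TAA (SE; edgeR adjusted p = 0.0583, 0.639 and 0.0696). None passed, whereas mt-tRNA-Ala rose (1.75 ± 0.32, edgeR adjusted p = 0.00311). Of the 11 other heavy-strand tRNAs 1 rose, mt-tRNA-Ile (0.87, edgeR adjusted p = 0.0256), and 0 fell.

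Whether they passed depended on the processing and on the hearts kept, and the sizes on mouse 17. With fits that leave out 1 heart included, mt-tRNA-Phe passed in 8 of 13 alternatives and mt-tRNA-Leu-TAA in 7 of 13. The former passed in DESeq2 (0.98, DESeq2 adjusted p = 0.00803) and so did the latter (0.80, DESeq2 adjusted p = 0.0107). On the scale of the 19 other mitochondrial tRNAs, mt-tRNA-Phe passed (0.53, edgeR adjusted p = 0.0150) and mt-tRNA-Leu-TAA did not (0.34, edgeR adjusted p = 0.196). Without mouse 17 the 10X label is 1 heart, mouse 18, and the spread comes from the AAV9-GFP hearts alone. mt-tRNA-Phe was then at 0.28 and mt-tRNA-Leu-TAA at 0.13.

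The cytosolic tRNAs of the same amino acids, encoded in the nucleus, changed in both directions in the MEFs. So did the 201 transcripts as a whole, of which 22.9% passed higher and 25.4% lower for the mean of the Cl lines. For the mean of the 3 Cl lines, 2 of the 3 nuclear tRNA-Phe transcripts fell, tRNA-Phe-GAA-1 (-0.20, edgeR adjusted p = 0.0145) and tRNA-Phe-GAA-2 (-0.65, edgeR adjusted p = 0.0172), and tRNA-Phe-GAA-3 was at 0.07 (edgeR adjusted p = 0.299). Of 11 nuclear tRNA-Val transcripts 2 rose and 1 fell, the latter tRNA-Val-TAC-1 (-0.41, edgeR adjusted p = 3.98e-04). Of 15 nuclear tRNA-Leu transcripts 4 rose and 6 fell, among the latter tRNA-Leu-TAA-1 (-0.97, edgeR adjusted p = 6.26e-05) and tRNA-Leu-TAA-2 (-0.18, edgeR adjusted p = 0.0155). Cl_1 weighed most in 2 of these means. Line by line, tRNA-Phe-GAA-2 was at -1.73 in Cl_1, -0.06 in Cl_2 and -0.16 in Cl_3. tRNA-Leu-TAA-1 was at -1.84 in Cl_1, and Cl_2 and Cl_3 lay above Cl_1 by 1.43 and 1.18. How the authors assigned reads shared by near-identical nuclear tRNAs is not given in the sources used here, so values of single nuclear transcripts are uncertain.

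In the 10X hearts, tRNA-Phe-GAA-2 rose (0.85, edgeR adjusted p = 0.0131), while tRNA-Phe-GAA-1 was at -0.41 (edgeR adjusted p = 0.0641) and tRNA-Phe-GAA-3 at 0.22 (edgeR adjusted p = 0.266). tRNA-Val-TAC-1 fell (-0.69, edgeR adjusted p = 0.00915), although 6 of the 9 nuclear tRNA-Val transcripts tested rose and 2 fell. The 6 that rose were minor, at 8.85 to 91.7 CPM in the AAV9-GFP hearts. At 4059 to 9487 CPM there, tRNA-Val-TAC-1, tRNA-Val-AAC-1/5 (-0.82) and tRNA-Val-CAC-2 (-0.74) all had negative differences. That of tRNA-Val-CAC-2 did not pass (edgeR adjusted p = 0.0547). tRNA-Leu-TAA-2 fell (-0.48, edgeR adjusted p = 0.0259), tRNA-Leu-TAA-1 was at -0.31 (edgeR adjusted p = 0.0839), and of 15 nuclear tRNA-Leu transcripts 2 rose and 6 fell. Of all 180 transcripts 23.9% passed higher and 27.8% lower in this contrast.

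The transcripts whose log2 levels followed each of the 3 most closely were other mitochondrial tRNAs in the MEFs. Over the 8 MEF libraries, which include the shift from Ctrl_1, mt-tRNA-Phe correlated most with mt-tRNA-Leu-TAA (r = 0.98), mt-tRNA-His (r = 0.97) and mt-tRNA-Ile (r = 0.96). Over the 6 Cl libraries alone these were 0.83, 0.98 and 0.81. mt-tRNA-Val was most like mt-tRNA-Ile (r = 0.96), mt-tRNA-Trp (0.92) and mt-tRNA-Leu-TAA (0.92), and mt-tRNA-Leu-TAA was most like mt-tRNA-Trp (0.98), mt-tRNA-Ile (0.98) and mt-tRNA-Phe (0.98). All points of a library share its depth and its total of mitochondrial tRNA.

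In the 8 hearts mt-tRNA-Phe was most like mt-tRNA-Ile (r = 0.93, and 0.77 over the 7 hearts without mouse 17), mt-tRNA-Tyr (0.90 and 0.68) and mt-tRNA-Asp (0.88 and 0.57). mt-tRNA-Val was most like mt-tRNA-Thr (0.94 and 0.89), mt-tRNA-Arg (0.94 and 0.91) and mt-tRNA-Lys (0.92 and 0.85). For mt-tRNA-Leu-TAA the closest were tRNA-Ser-CGA-3 (0.88 and 0.23), mt-tRNA-Gly (0.86 and 0.35) and tRNA-Arg-CCT-3 (0.85 and 0.74), and the first 2 of these were low without mouse 17. Between the 3 themselves, mt-tRNA-Phe and mt-tRNA-Val had r = 0.55 over 8 hearts and -0.09 without mouse 17, mt-tRNA-Phe and mt-tRNA-Leu-TAA 0.79 and 0.16, and mt-tRNA-Leu-TAA and mt-tRNA-Val 0.84 and 0.68.

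The MEF and heart tables were made and scaled apart, so tissue and table cannot be told apart and levels were not tested between them. Side by side, mt-tRNA-Phe took 15.2% of mitochondrial tRNA counts in Ctrl_1, 9.72% in the Cl libraries, 8.72% in the AAV9-GFP hearts and 11.4% in the AAV9-DdCBE hearts. mt-tRNA-Val took 11.1%, 10.5%, 8.71% and 8.35%, and mt-tRNA-Leu-TAA 5.88%, 5.78%, 4.47% and 5.09%.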

How the data were processed

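The authors deposited raw counts per tRNA transcript, 1 table for 8 MEF libraries and 1 for 8 hearts. Per the labels' protocols, mildly acidic RNA extraction was followed by oxidation, beta-elimination and mim-tRNAseq library preparation for Illumina sequencing. The submitters' processing notes name cutadapt 3.5 and build mm39. The handling of shared reads, like the aligner and the counter, is not given in the sources used here. All lists and the 3 members were chosen with earlier results of these data known.

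The test was edgeR 4.0.16 in R 4.3.3 (TMM, filterByExpr with minimum count 10 and minimum total 15, glmQLFTest, Benjamini-Hochberg), 1 fit per table. The filter kept 201 of 819 MEF transcripts and 180 of 821 heart transcripts, all 3 members in both. The pipeline was tested on simulated data. Shares and log2 ratios of counts were compared with exact two-sided permutation tests (scipy 1.17.1, the smaller tail doubled) over libraries, with Benjamini-Hochberg adjustment over 18 tests. Alternatives were library totals, nuclear and mitochondrial scaling, DESeq2 1.42.0, no filter, a replicate block, summed lines, other denominators and each library left out. The p-value as the share of assignments with at least the observed absolute difference was added after seeing the data. Fractions of counts carry 95% Wilson intervals, which cover counting error only.

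Every replicate pair was further apart than sampling noise allows, with chi-square of 98.2 to 1889 for each degree of freedom. Passages of the same number deviated together in all 6 pairs of MEF lines (r 0.180 to 0.271 over 181 transcripts). For the replicate block the numbers were therefore taken to pair the passages, from the data and not from the labels. The reported MEF fit and the exact permutation tests used no pairing. Named transcripts were the 3 tRNAs, mt-tRNA-Ala, the 2 extremes at each end of the other heavy-strand tRNAs and of the light-strand tRNAs, nuclear tRNAs with the same anticodons, and the 3 most alike by correlation.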

Additional observations from a re-analysis of the deposited data

Results flagged for a closer look

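Each measure was checked in each arm of 4 hearts for a heart whose gap to the next was nearly the whole range. Independent checks would flag about 1 in 20 by chance. These checks share the same hearts and counts, so no excess over chance can be read. Such a heart was found in 4 of 24 checks. Mouse 17, an AAV9-DdCBE heart labelled 10X, stood apart in 3 of them: by its mt-tRNA-Phe level of 81349 CPM, by its mt-tRNA-Leu-TAA level of 35953 CPM, and by its log2 value of mt-tRNA-Phe over the 11 other heavy-strand tRNAs, 1.71. This heart also had the highest share of mitochondrial tRNA counts (59.9%), and the part of that share in the first 2 values was not tested. Mouse 18, also labelled 10X, had the lowest log2 ratio of mt-tRNA-Phe to mt-tRNA-Leu-TAA of its arm, 1.13, but this arm was so tight (1.13 to 1.18) that the gap was small beside the AAV9-GFP range (0.44 to 1.42).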

How the results depend on the processing

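mt-tRNA-Phe kept its call for each Cl line and for their mean under every alternative run (mean -1.33 to -0.78). mt-tRNA-Val in that mean lost its call with library totals only (-0.56), nuclear scaling (-0.58), scaling on the 19 other mitochondrial tRNAs (-0.21) and summed lines (-0.67); with single libraries left out it ran from -0.81 to -0.52. mt-tRNA-Leu-TAA lost it with that mitochondrial scaling (-0.15) and summed lines (-0.61). Summed lines called 9 of 221 transcripts in place of 97; leaving out libraries called 59 to 101. Summing makes the line the unit, with 3 Cl lines against 1 control line, whereas the reported fit takes passages as replicates. The part of this in the lower count was not tested.

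In Cl_1, mt-tRNA-Val passed in DESeq2 (-0.58) and without a filter (-0.58), and ran from -0.90 to -0.28 with libraries left out. mt-tRNA-Leu-TAA did not pass with mitochondrial scaling (-0.13), and ran from -0.69 to -0.44. In Cl_2, mt-tRNA-Val passed in DESeq2 (-0.64), without a filter (-0.62), with the replicate block (-0.65), and without Cl_1 replicate 1, Cl_1 replicate 2 or Cl_3 replicate 1 (range -0.75 to -0.48). mt-tRNA-Leu-TAA there did not pass with mitochondrial scaling (-0.14). In Cl_3, mt-tRNA-Val did not pass with library totals (-0.66), nuclear scaling (-0.68) or mitochondrial scaling (-0.30; range with libraries left out -1.10 to -0.57), nor mt-tRNA-Leu-TAA with the last (-0.19). With libraries left out, 43 to 63 transcripts passed in Cl_1 (68 with all), 53 to 99 in Cl_2 (93), 57 to 106 in Cl_3 (102) and 19 to 40 in the F test over the Cl lines (49, and 31 with mitochondrial scaling). The lowest counts came without Ctrl_1 replicate 1 for Cl_1, Cl_2 replicate 1 for Cl_2 (54 without Ctrl_1 replicate 1), and Cl_3 replicate 2 for Cl_3 (66 without Ctrl_1 replicate 1) and for the F test. Against 30 higher and 38 lower in Cl_1, 52 and 41 in Cl_2, and 53 and 49 in Cl_3, mitochondrial scaling gave 78 and 14, 81 and 4, and 85 and 7. Library totals gave 54 and 25 in Cl_2 and 70 and 30 in Cl_3. The replicate block changed no other call of the 3 tRNAs.

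Between Cl lines, where no difference of the 3 tRNAs passed as reported, Cl_2 minus Cl_1 turned sign for mt-tRNA-Val with mitochondrial scaling (0.012) and for mt-tRNA-Leu-TAA with library totals (0.0016) and nuclear scaling (0.00055). With libraries left out it ran from -0.28 to 0.0023 for mt-tRNA-Phe, -0.37 to 0.25 for mt-tRNA-Val and -0.20 to 0.036 for mt-tRNA-Leu-TAA. Cl_3 minus Cl_1 ran from -0.55 to 0.088 for mt-tRNA-Val. Cl_3 minus Cl_2 ran from -0.45 to 0.084 for mt-tRNA-Val and -0.12 to 0.0072 for mt-tRNA-Leu-TAA. Transcripts called for Cl_3 minus Cl_2 were 2 in edgeR and 15 in DESeq2. With libraries left out, 13 to 39 were called for Cl_2 minus Cl_1 (34) and 20 to 52 for Cl_3 minus Cl_1 (52).

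In the hearts the sign turned for mt-tRNA-Val with mitochondrial scaling (-0.0065) and with the 5X hearts alone (-0.20), and for mt-tRNA-Leu-TAA with the 5X hearts alone (-0.062). With hearts left out mt-tRNA-Val ran from -0.15 to 0.24. Calls numbered 14 with library totals, 14 with mitochondrial scaling, 27 in DESeq2 and 0 to 31 with hearts left out. For the 10X hearts, mt-tRNA-Phe passed with library totals (0.84), DESeq2 (0.98), no filter (1.01), nuclear scaling (1.24) and mitochondrial scaling (0.53), and ran from 0.28 to 1.16 with hearts left out. mt-tRNA-Leu-TAA passed with the first 4 of these (0.66, 0.80, 0.82 and 1.06), and ran from 0.13 to 0.96. mt-tRNA-Val turned sign with mitochondrial scaling (-0.10) and ran from -0.26 to 0.48. Calls numbered 57 with library totals, 46 with mitochondrial scaling and 41 to 121 with hearts left out, against 93.

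Counted as the share of assignments with at least the observed absolute difference, a p chosen after seeing the data, the exact permutation p was 0.0357 in the MEFs (n = 6 and 2) for the mt-tRNA-Phe share (-5.52), its log2 ratio to mt-tRNA-Val (-0.57), to mt-tRNA-Leu-TAA (-0.63) and to the strand (-0.47), with Benjamini-Hochberg values of 0.0918. By this count 0.0357 is the smallest exact permutation p that 6 against 2 libraries allow. With the 14 heavy-strand tRNAs as denominator the MEF share differences were 1.03 points for mt-tRNA-Val and 0.84 for mt-tRNA-Leu-TAA. Both signs were opposite to those with all mitochondrial tRNAs as denominator (-0.596 and -0.104 points). The mt-tRNA-Leu-TAA share was then 7.27% and 7.56% in Ctrl_1 and 7.58% to 8.65% in the Cl libraries, without overlap but by a small margin. The mt-tRNA-Val groups still overlapped. In the hearts the log2 ratio of mt-tRNA-Leu-TAA to mt-tRNA-Val differed by 0.43 with the 10X hearts alone, and mt-tRNA-Leu-TAA over the summed strand by 0.23 (exact permutation p = 0.0857, n = 4 each). Depth was no limit for the 3 tRNAs, and the small number of passages, control lines and hearts was.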
